A study of Homo sapiens with 6 samples.

Results

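The genes described here encode secreted and membrane-bound proteases that degrade the extracellular matrix, a pair of their inhibitors, and the receptor that holds plasminogen activation at the cell surface. They were chosen by name, as 9 gene symbols: the matrix metalloproteinases MMP1, MMP3, MMP9, MMP13 and MMP14, the plasminogen activator PLAU with its receptor PLAUR, and the inhibitors TIMP1 and TIMP2. All 9 had a row among the 17631 genes of the deposited tables, and 7 passed the expression filter that left 12582 genes for testing. RNA-seq had been performed on MDA-MB-231 cells, a long-established human line of triple-negative breast cancer, grown in medium with fetal bovine serum. The control group of 3 libraries came from cells treated with vehicle, whose composition the labels do not give. The other 3 libraries came from cells treated with 30 µM PDBAG1, a peptide of the protein GPD1 fused to a cell-penetrating sequence. No library had that sequence alone, so its effect cannot be told apart from that of the GPD1 part. Both groups were collected after 24 h, and neither carries an engineered allele. All 6 libraries come from a single line in culture, and the labels do not say whether the replicates were separate cultures, so the p values measure the spread between these libraries only.

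Metalloproteinases are made as inactive precursors with a catalytic zinc ion, which is blocked until the pro-domain is removed. The plasminogen system feeds into this step: PLAU bound to PLAUR converts plasminogen to plasmin, a broad serine protease that cleaves fibrin and matrix proteins and can activate several MMP precursors. TIMPs bind the active site of metalloproteinases and block it, and TIMP2 additionally takes part, together with MMP14 at the cell surface, in the activation of the MMP2 precursor. These genes are known for their part in invasion and matrix remodelling by breast cancer cells.

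Values were deposited as TPM, transcript abundances corrected for transcript length and scaled to the same total in every library, a unit that allows levels to be compared between genes but keeps no record of sequencing depth. The depth is therefore unknown and no counting error can be given. Each library detected 12392 to 12611 genes at 1 TPM or more, and no library stood apart from its group: the SD of the log2 differences between libraries was 0.14 to 0.18 within a group and 0.28 to 0.30 between groups. Of the markers of this line, all 8 were expressed, with VIM between 4174 and 5942 TPM. At an adjusted p of 0.05 in limma, 3 rose (VIM, CD44 and MSN) and 2 fell (AXL and CAV1). Of all genes tested, 37.6% were called in either direction. Of 13 markers of other cell types, 11 had a row and 6 were tested. PGR was at 0.06 TPM or less in every library, and ESR1 was at 1.96 to 3.38 TPM. By contrast CD68, a lysosomal protein of macrophages that many other cells also express, was at 251 to 264 TPM with vehicle and 306 to 329 TPM with PDBAG1. PECAM1, an adhesion molecule of endothelial cells, was at 3.97, 4.08 and 3.78 TPM with vehicle and at 7.87, 8.91 and 9.15 TPM with PDBAG1, a rise of 0.96 on the log2 scale (adjusted p = 2.21e-06 by limma), while VWF, another endothelial marker, did not exceed 0.09 TPM. GFAP, an intermediate filament of astrocytes, fell from 7.56 ± 0.473 to 5.38 ± 0.182 TPM (SD, n = 3 per group). Of the 6 tested markers of other cell types, 2 rose (CD68 and PECAM1) and 1 fell (GFAP). No marker with a row was at 0 in every library. The summed level of this marker list, most of it CD68, was 272 to 285 TPM in the vehicle group and 330 to 353 TPM in the PDBAG1 group, and its part in the results below was not tested. In bulk RNA, more transcript per cell and more cells that express a gene cannot be told apart.

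All 7 members that could be tested rose with PDBAG1, proteases and inhibitors alike. On the log2(TPM + 1) scale the rise was largest for MMP14 (1.93-fold) and PLAUR (1.82-fold), intermediate for TIMP2 (1.49-fold), MMP3 (1.39-fold), PLAU (1.37-fold) and MMP1 (1.33-fold), and smallest for TIMP1 (1.12-fold). In the limma fit across all genes, 37.6% of the genes tested passed an adjusted p of 0.05 in either direction and 21.7% were higher with PDBAG1 at that threshold, so a single call is common in these data. With a fold of at least 1.5 also required, 2.86% of all genes were higher with PDBAG1, and 2 of the 7 members, MMP14 and PLAUR, passed it. In all 7 every PDBAG1 value exceeded every vehicle value, which held for 27.2% of the genes tested. The members' median log2 fold change was 0.47, against 0.031 over all genes tested. Because the members were chosen with earlier results of these data known, these contrasts with all genes are descriptions and not tests. Of the calls over all genes, 2736 were higher and 2000 lower with PDBAG1. This split depended on scaling, with 2455 higher and 2741 lower after median-of-ratios scaling and 2404 higher and 2742 lower after quantile normalization, and the members' directions were the same under both.

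**Figure D1:**
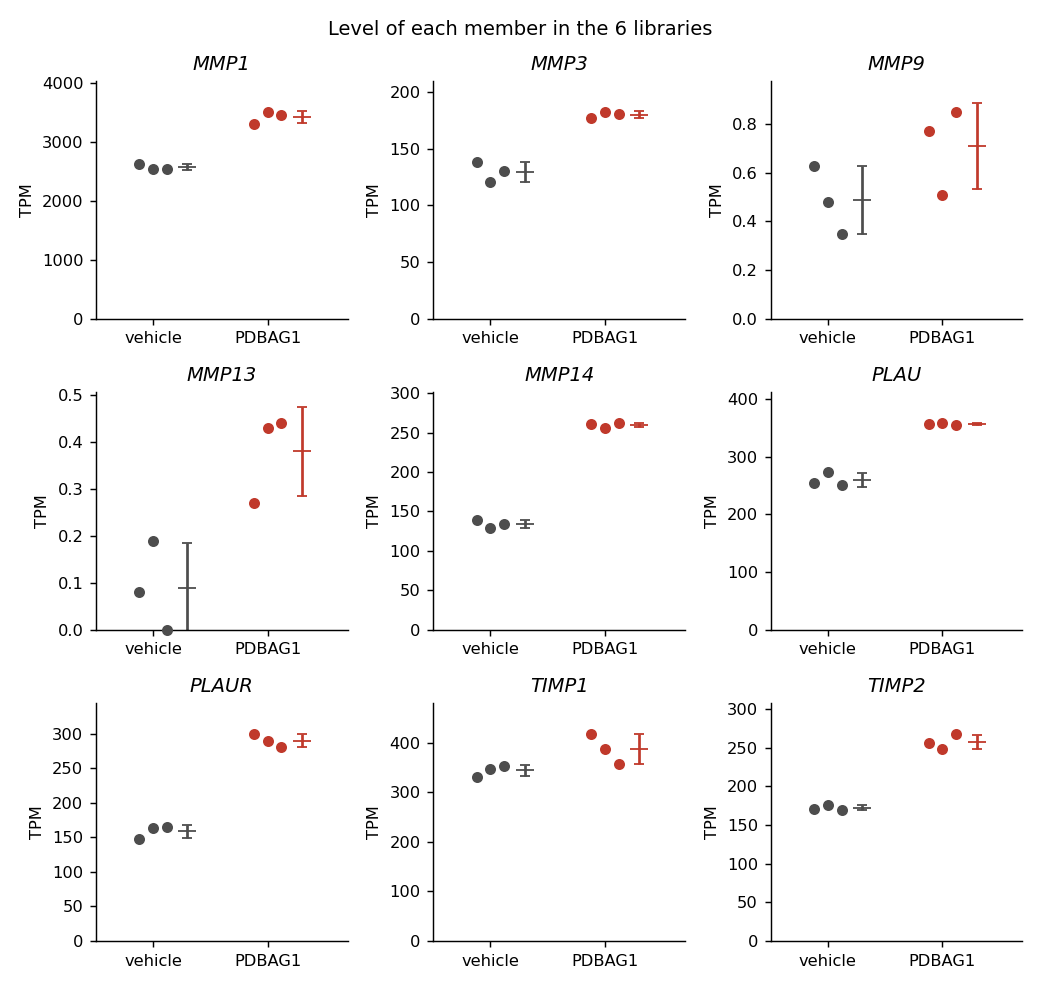
TPM of each of the 9 members, with a separate linear axis from 0 for each gene; points are single libraries, and the bar beside them is the mean with its SD (n = 3). The vehicle and PDBAG1 libraries are well apart for MMP1, MMP3, MMP14, PLAU, PLAUR and TIMP2, almost touch for TIMP1, and for MMP9 and MMP13 all values lie under 1 TPM.

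The secreted collagenase MMP1, which cleaves fibrillar collagens, was by far the most abundant member. Its TPM was 2626, 2537 and 2540 in the vehicle libraries and 3303, 3505 and 3451 in the PDBAG1 libraries. All PDBAG1 libraries were higher, by at least 677 TPM, and the means were 2568 ± 50.5 and 3420 ± 105 TPM (SD, n = 3 per group). The log2 fold change was 0.41 (SE, the SE, 0.03; limma with Benjamini-Hochberg adjustment, adjusted p = 6.18e-07). By mean TPM, MMP1 ranked 48 of the 17631 genes with vehicle and 27 with PDBAG1, and its transcripts made up 0.254% to 0.263% of each vehicle library and 0.330% to 0.351% of each PDBAG1 library.

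MMP3, the stromelysin that degrades proteoglycans and non-fibrillar matrix and can activate the MMP1 precursor, had a level far below that of MMP1. Vehicle libraries were at 138, 121 and 130 TPM and PDBAG1 libraries at 177, 183 and 181 TPM. The groups did not overlap, and the PDBAG1 libraries lay closer together than the vehicle libraries. The log2 fold change was 0.47 (SE 0.05, adjusted p = 6.57e-06 by limma).

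MMP1 (chromosome 11, 102789401 to 102798160, minus strand; GENCODE v44 on GRCh38), MMP3 (102835801 to 102843609) and MMP13 (102942995 to 102955732) belong to a group of 9 MMP genes that occupies 435.2 kb of this chromosome, all on the same strand. The 7 of them with values differed widely in level. MMP10, another stromelysin and the neighbour of MMP1, was at 0.95, 0.96 and 0.32 TPM with vehicle and at 1.83, 1.48 and 1.7 TPM with PDBAG1. It passed the expression filter only through the PDBAG1 libraries, all vehicle libraries being under 1 TPM, so its difference is given as values only. MMP12, the macrophage elastase on the other side of MMP3, was at 0.51 to 0.64 TPM with vehicle and 0.36 to 1.10 TPM with PDBAG1, so that its groups overlapped. MMP7 and MMP8 did not exceed 0.29 TPM in any library. MMP12, MMP7 and MMP8 were named after their values were seen. Within this group of neighbours only MMP1 and MMP3 exceeded 2 TPM.

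MMP13, a collagenase with a preference for cartilage collagen, was close to the lower end of the scale. It was listed at 0.08, 0.19 and 0 TPM in the vehicle libraries and at 0.27, 0.43 and 0.44 TPM in the PDBAG1 libraries. Although the groups do not overlap, no library reached 1 TPM, and the gene was not tested. MMP9, a gelatinase (chromosome 20, 46008908 to 46016561), was equally low, at 0.63, 0.48 and 0.35 TPM with vehicle and 0.77, 0.51 and 0.85 TPM with PDBAG1, with overlapping groups. MMP9 did not pass the filter either. No fold change is given for these 2 genes, since the reads behind such values are unknown. With no expression filter, MMP13 passed the threshold (adjusted p = 0.0160 by limma) and MMP9 did not (adjusted p = 0.192 by limma). Both genes lay under 1 TPM in every library, so neither outcome is used as a result.

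MMP14, a collagenase anchored in the plasma membrane (chromosome 14, 22836560 to 22849041), rose most among the members. It was at 139, 129 and 135 TPM with vehicle and at 260.5, 256 and 262 TPM with PDBAG1. The gap of 117 TPM between the groups was many times the spread within either of them. The means were 134 ± 5.08 and 259.5 ± 3.02 TPM (SD, n = 3 per group), and the log2 fold change was 0.95 (95% interval 0.86 to 1.03, adjusted p = 1.24e-09 by limma). With each library left out in turn it lay between 0.92 and 0.97. Among the 12582 genes it had rank 93 by size of rise.

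PLAU encodes the urokinase-type plasminogen activator (chromosome 10, 73909177 to 73917496). Vehicle libraries were at 255, 274 and 251 TPM and PDBAG1 libraries at 356, 358 and 355 TPM. The PDBAG1 libraries were nearly identical and all higher than the vehicle libraries (log2 fold change 0.46, SE 0.04, adjusted p = 1.41e-06 by limma). PLAUR, the glycolipid-anchored receptor of PLAU (chromosome 19, 43646095 to 43670547), was at 148, 163 and 166 TPM with vehicle and at 299, 289 and 281 TPM with PDBAG1. The receptor thus rose more than its ligand, with a log2 fold change of 0.87 (95% interval 0.76 to 0.97, adjusted p = 1.45e-08 by limma) against an interval of 0.37 to 0.54 for PLAU.

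TIMP1 (chromosome X, 47582408 to 47586789), the more abundant of the 2 inhibitors, changed least. Its TPM was 331, 348 and 353 with vehicle and 417, 387 and 356 with PDBAG1. Just 3.0 TPM separated the lowest PDBAG1 library from the highest vehicle library, and the SD rose from 11.5 to 30.3 TPM (n = 3 each). The log2 fold change was 0.17 (95% interval 0.057 to 0.28, adjusted p = 0.0200 by limma). This call was lost without vehicle replicate 1 (log2 fold change 0.14, adjusted p = 0.0669 by limma), without PDBAG1 replicate 1 (0.11, adjusted p = 0.0693 by limma), without PDBAG1 replicate 2 (0.16, adjusted p = 0.0508 by limma) and after median-of-ratios scaling (0.12, adjusted p = 0.213 by limma).

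TIMP2 (chromosome 17, 78852977 to 78925387) was at 171, 176 and 170 TPM with vehicle and at 256, 249 and 267.5 TPM with PDBAG1. The groups were clearly separated, and the log2 fold change was 0.58 (95% interval 0.49 to 0.66, adjusted p = 1.57e-07 by limma). Its interval does not overlap that of TIMP1 or that of MMP14. By mean TPM the order in the vehicle group was MMP1, TIMP1, PLAU, TIMP2, PLAUR, MMP14 and MMP3, of which MMP14 and MMP3 differed by less than their spread. With PDBAG1 the order was MMP1, TIMP1, PLAU, PLAUR, MMP14, TIMP2 and MMP3, and here the libraries of TIMP1 overlapped those of PLAU, and those of MMP14 overlapped those of TIMP2. Stretches of MMP1, PLAU and TIMP2 overlap exons of antisense genes in the annotation, by 223 bases for MMP1, 915 bases for PLAU and 367 bases for TIMP2, as do 32 bases of MMP3 and 430 bases of MMP9. TIMP2 also shares 224 exon bases with CEP295NL on its own strand, which was at 0.233 and 0.347 TPM on average. Whether reads were counted by strand is not given in the sources used here, so reads from those stretches cannot be told apart.

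Promoter sequences from RefSeq (GRCh38.p14) were available in the reference used here for 4 of the 9 members, MMP14, PLAU, PLAUR and TIMP1. The window of 250 bases before each transcription start was searched on both strands for TGANTCA, the site of AP-1 factors, which are classical inducers of protease genes, and for ACGTG and GCGTG, the core of the hypoxia response element. Stretches from the genes with the 2 largest rises and from the gene with the smallest are shown, without annotated exon bases and with the matches in capitals. A longer annotated transcript covers the PLAUR window, so of its 2 matches only TGAGTCA is shown, with its flanks.
MMP14 (chr14:22836335-22836559, plus strand): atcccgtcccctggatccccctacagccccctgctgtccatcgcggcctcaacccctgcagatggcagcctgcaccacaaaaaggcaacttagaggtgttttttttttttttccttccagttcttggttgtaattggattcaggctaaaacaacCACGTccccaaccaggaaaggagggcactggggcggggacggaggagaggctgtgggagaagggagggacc
PLAUR (chr19:43670339-43670365, minus strand): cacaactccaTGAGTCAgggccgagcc
TIMP1 (chrX:47582186-47582407, plus strand): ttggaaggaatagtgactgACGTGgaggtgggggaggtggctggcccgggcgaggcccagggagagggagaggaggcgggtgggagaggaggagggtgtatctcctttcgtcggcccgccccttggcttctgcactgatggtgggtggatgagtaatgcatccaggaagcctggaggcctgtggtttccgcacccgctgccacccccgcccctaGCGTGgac

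PLAUR was the only one of the 4 genes with TGANTCA in the window, 186 bases before the start, a motif found in 6.6% of the 35116 windows in the table. ACGTG, present in 18.5% of all windows, occurred in MMP14, on the reverse strand 96 bases before the start, and in TIMP1, 231 bases before the start. GCGTG, present in 32.2% of all windows, occurred in TIMP1, in PLAUR, and in 1 of the 2 windows listed for PLAU. All 4 genes searched had ACGTG or GCGTG in at least 1 window, and whether these motifs bear on the changes was not tested. Only exact matches were counted, so a site that departs from a pattern by any base was not seen. A match is a description of letters and not a measured binding site.

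To set proteases against their inhibitors, log2 ratios of TPM + 1 were formed within each library, which all but removes any scaling between libraries. With 3 libraries against 3, the two-sided exact permutation test used here cannot give a p under 0.1. The ratio of MMP14 to TIMP2, its inhibitor and partner in MMP2 activation, was -0.30, -0.44 and -0.33 in the vehicle libraries and 0.023, 0.040 and -0.030 in the PDBAG1 libraries. It was higher in every PDBAG1 library, by 0.37 on average (exact permutation p = 0.1, the smallest possible, n = 3 each), and the linear ratio went from 0.780 to 1.01.

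The ratio of MMP1 to TIMP1 was not separated. It was 2.98, 2.86 and 2.84 with vehicle and 2.98, 3.17 and 3.27 with PDBAG1, and PDBAG1 replicate 1 lay within the vehicle range (difference 0.25, exact permutation p = 0.2, n = 3 each). Within the inhibitors the balance shifted from TIMP1 towards TIMP2, with log2 ratios of TIMP1 to TIMP2 of 0.95, 0.98 and 1.05 with vehicle and 0.70, 0.64 and 0.41 with PDBAG1 (exact permutation p = 0.1, the smallest possible). The ratio of PLAU to PLAUR fell from 0.78, 0.75 and 0.60 to 0.25, 0.31 and 0.34 (exact permutation p = 0.1, the smallest possible), so that ligand transcripts still exceeded those of the receptor. Of the 4 ratios given here, 3 had groups that did not overlap, and with 3 libraries per group none could reach an adjusted p of 0.05. Among single genes tested, 27.2% had every PDBAG1 library above every vehicle library. The share for ratios of other gene pairs was not computed, so this count of ratios is a description only.

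**Figure D2:**
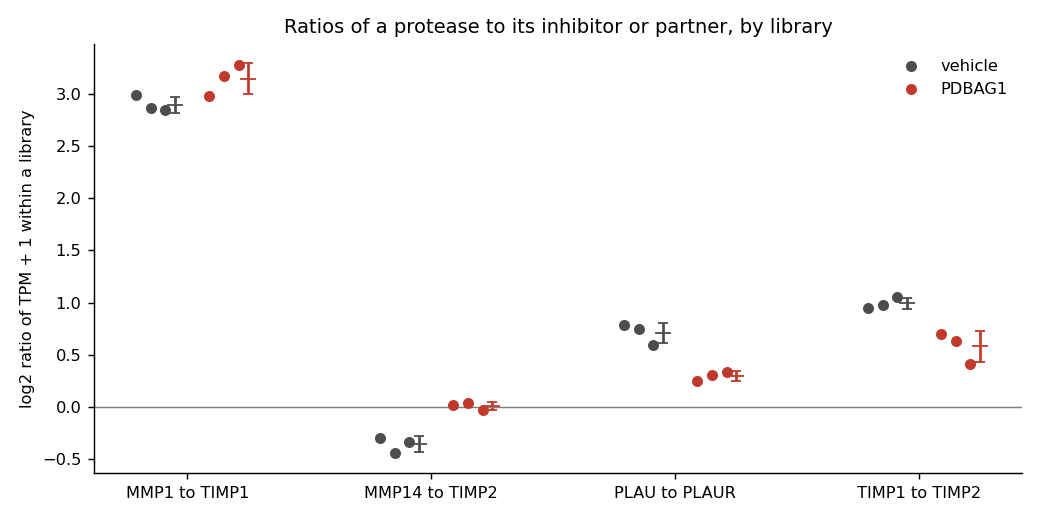
Log2 ratios of TPM + 1 within each library for 4 pairs of members; points are libraries and bars are the mean with SD (n = 3), with 0 marking equal levels. MMP14 moved from below TIMP2 to about its level, PLAU moved closer to PLAUR, and the MMP1 to TIMP1 ratios of the groups overlap.

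As a description, the TPM of the 6 member proteases (MMP1, MMP3, MMP9, MMP13, MMP14 and PLAU) summed to 3057 to 3159 in the vehicle libraries and 4098 to 4303 in the PDBAG1 libraries. MMP1 alone made up 82.9% to 83.1% of the vehicle sums and 80.6% to 81.5% of the PDBAG1 sums. TIMP1 and TIMP2 together gave 502 to 523 TPM with vehicle and 624 to 673 TPM with PDBAG1. The protease sum was 5.84 to 6.29 times the inhibitor sum in the vehicle group and 6.09 to 6.82 times in the PDBAG1 group, so the ranges overlapped. Against the sum of all 4 TIMPs it was 4.28 to 4.42 times with vehicle and 4.72 to 5.16 times with PDBAG1, and these ranges did not overlap. Without MMP1, the quotient over TIMP1 and TIMP2 alone was 0.987 to 1.06 with vehicle and 1.18 to 1.28 with PDBAG1, and these ranges did not overlap. These are transcript sums, and neither protein nor enzyme activity was measured here.

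With the members included, 55 proteases (the 6 member proteases with the other MMPs, ADAMs and ADAMTSs) were listed. On the other side were 20 genes listed as inhibitors (TIMP1 and TIMP2 with the other inhibitors and serpins). Of these proteases and inhibitors, 23 and 14 could be tested. Of the proteases 12 rose and 0 fell in limma at an adjusted p of 0.05, with a median log2 fold change of 0.31. These counts include MMP10, which passed the filter only through the PDBAG1 libraries. Of the genes listed as inhibitors 9 rose and 0 fell, with a median of 0.21. These include SPOCK2, which was called, and PCOLCE, which was not, and neither is an established protease inhibitor. Both shares of rises were above the 21.7% of all genes. They include the members already given above, so they are not a separate result, and no test was made of the lists. The 2 sides are not matched: PLAT, PLG and FURIN were left off the protease side. Serpins against plasminogen activators and plasmin were on the inhibitor side, so the medians do not compare proteases with their own inhibitors.

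Of 18 other MMPs, 14 had a row, 6 were tested, and MMP19 rose. MMP10 entered the test only through its PDBAG1 values, so its call is not used as a result. MMP19, a soluble MMP of many normal tissues, went from 4.60 ± 0.569 to 7.39 ± 1.11 TPM (SD, n = 3 per group; log2 fold change 0.58, adjusted p = 0.00110 by limma). MMP15, a membrane-anchored relative of MMP14, was at 3.59 and 4.26 TPM on average and did not pass (adjusted p = 0.123 by limma). MMP2, the gelatinase whose precursor MMP14 and TIMP2 activate, did not exceed 0.07 TPM in any library and is named here after its values were seen.

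Of the 7 tested ADAMs, membrane proteases that release cell surface proteins, 4 rose and 0 fell, where 21.7% of all genes were called higher. ADAM8 was at 57.5, 57.9 and 53.9 TPM with vehicle and at 112, 118 and 114 TPM with PDBAG1, a rise of 1.01 on the log2 scale (SE 0.05, adjusted p = 2.91e-09 by limma), next to 0.95 for MMP14. ADAM17, the main sheddase of TNF and of several EGFR ligands, went from 25.96 ± 0.930 to 36.8 ± 2.62 TPM and ADAM19 from 7.79 ± 0.235 to 11.8 ± 0.534 TPM (SD, n = 3 per group). ADAM9 and ADAM15, the most abundant ADAMs by mean over all libraries, had log2 fold changes of -0.05 and 0.04 and did not pass (adjusted p = 0.524 and 0.412 by limma).

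Among 9 genes listed as other inhibitors, 8 had a row, 6 were tested and 2 rose, a share near the 21.7% of all genes called higher. TFPI2, a secreted inhibitor of plasmin and related serine proteases, went from 45.6, 45.9 and 45.8 TPM to 89.0, 92.0 and 90.6 TPM, a log2 fold change of 0.97 (SE 0.04, adjusted p = 2.76e-09 by limma). SPOCK2, a matrix proteoglycan, rose from a low level of 2.52 ± 0.411 to 3.72 ± 0.620 TPM (SD, n = 3 per group), a log2 fold change of 0.42. This call was lost without vehicle replicate 2 (0.33, adjusted p = 0.0701 by limma), without PDBAG1 replicate 3 (0.32, adjusted p = 0.0655 by limma) and with no expression filter (adjusted p = 0.0502 by limma). TIMP3, the matrix-bound TIMP, was as abundant as TIMP2 in the vehicle group, at 183 ± 14.7 TPM, and stood at 191 ± 15.3 TPM with PDBAG1 (SD, n = 3 per group; log2 fold change 0.06, 95% interval -0.07 to 0.20, adjusted p = 0.453 by limma).

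In the plasminogen system, 4 of the 7 tested activators and receptors rose and 0 fell, where 21.7% of all genes were called higher. PLAT, the tissue-type plasminogen activator, rose from 144, 135 and 141 TPM to 234, 236 and 255 TPM, a log2 fold change of 0.78 (SE 0.04, adjusted p = 2.07e-08 by limma) and so a larger relative rise than that of PLAU. LRP1, a large endocytic receptor that clears proteases from the cell surface, went from 5.58 ± 0.470 to 10.6 ± 0.678 TPM (SD, n = 3 per group; log2 fold change 0.82). S100A10, which binds plasminogen at the cell surface together with ANXA2, rose from 1029 ± 15.6 to 1432 ± 43.4 TPM, whereas ANXA2 itself was at 3565 and 3706 TPM on average and did not pass (adjusted p = 0.169 by limma). ENO1, a glycolytic enzyme that also binds plasminogen, rose by 0.20 on the log2 scale. PLG, plasminogen itself, did not exceed 0.13 TPM in any library and is named after its values were seen.

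Of the 6 tested serpins that inhibit plasminogen activators or related proteases, 5 rose and 0 fell, all by less than 1.5-fold. Across all genes 21.7% were called higher, and no test was made of this list. SERPINE2, which inhibits PLAU and thrombin, rose from 42.5 ± 1.32 to 55.8 ± 2.07 TPM and SERPINB8 from 17.9 ± 0.481 to 21.3 ± 0.735 TPM (SD, n = 3 per group). SERPINB6 had a log2 fold change of 0.12, and its call was lost in 7 of the 12 alternatives. These were median-of-ratios scaling (adjusted p = 0.207 by limma), the replicate number as a block (adjusted p = 0.0937 by limma) and the fits without any 1 library except PDBAG1 replicate 3 (adjusted p = 0.0522 to 0.125 by limma). SERPINB2, a further inhibitor of PLAU, was low, at 2.85 ± 0.713 and 3.97 ± 0.257 TPM (SD, n = 3 per group), its groups overlapped, and its call was lost in 4 of the 6 fits that left out a library.

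**Figure D3:**
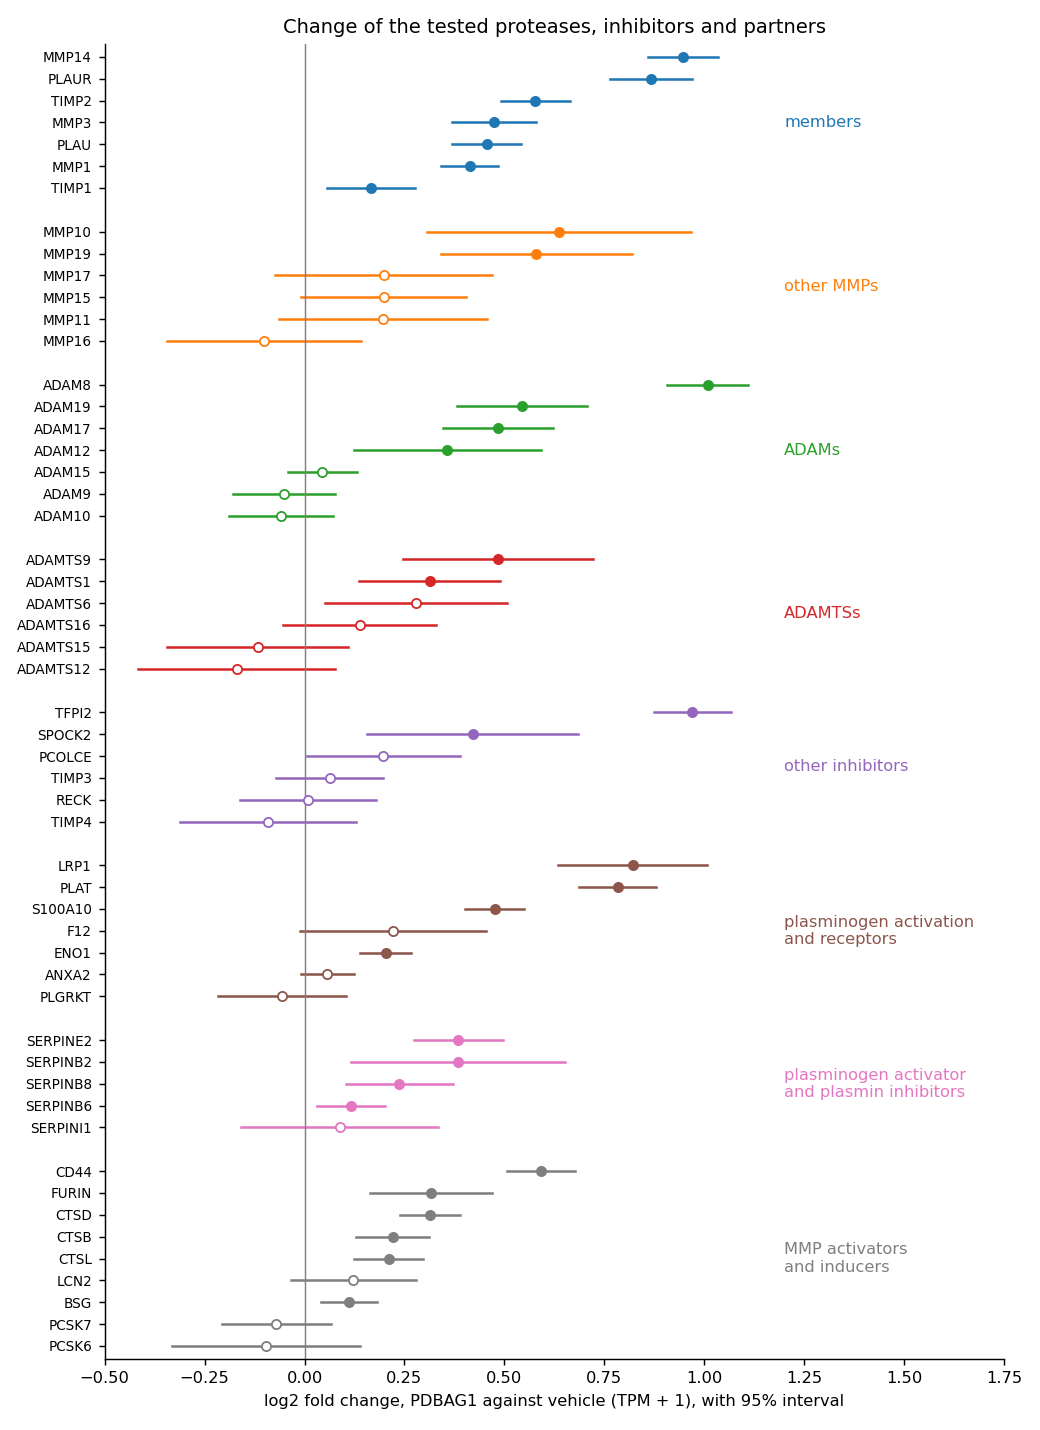
Log2 fold change on the TPM + 1 scale of tested proteases, inhibitors and partners, with its 95% interval from limma; filled points passed an adjusted p of 0.05 and open points did not. MMP14, PLAUR, ADAM8, TFPI2, PLAT and LRP1 lie farthest to the right, and no filled point lies left of 0. MMP10 is drawn too, but it entered the test only through its PDBAG1 values and its call is not used.

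The genes most like MMP14 over the 6 libraries, by the root mean square difference of log2(TPM + 1) after centring each gene on its mean, were KDM6B (0.029), a histone H3 lysine demethylase, TFPI2 (0.042) and ATP6V0D2 (0.043), a subunit of the vacuolar proton pump. The measure takes in the change between the groups, so likeness is not a result apart from the fold changes. The added 1 weighs on this measure for low genes: ATP6V0D2 went from 0.887 to 2.63 TPM and KDM6B from 3.57 to 8.14 TPM on average, larger relative rises in TPM than that of MMP14. With a vehicle mean under 1 TPM, ATP6V0D2 could pass the expression filter only with the help of PDBAG1 libraries. Of the members, PLAUR came closest to MMP14, with a difference of 0.093 and rank 54 among the other genes tested, and TIMP1 was the most distant, with 0.40 and rank 3323.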

How the data were processed

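Libraries of mRNA were run by the authors on a BGISEQ-500 instrument, and they mapped the reads with HISAT2 to GRCh38.p13 according to the methods, which describe FPKM; the submitters' processing notes name HISAT2 2.0.4, Bowtie2 2.2.5, RSEM 1.2.12 and GRCh38.p12. The values deposited by the authors are TPM with 2 decimals, 1 table per library. TPM keep no depth, so the only error available is the spread of 3 libraries in each group. The annotation and the strand setting are not given in the sources used here.

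Samples were grouped by their titles. Genes reaching 1 TPM in 3 or more of the 6 libraries were kept, 1 was added, and log2 values were fitted across all genes with limma 3.58.1 (lmFit, eBayes with trend) in R 4.3.3, with Benjamini-Hochberg adjustment and calls at 0.05. A fold change on this scale understates that of low genes. Ratios were tested by exact permutation. A gene of the inhibitor lists and 1 of the 5 ratios computed are not reported here, and list counts include that gene. The script was tested on simulated data. All members are reported; from the other lists of proteases, inhibitors and their partners, and apart from that gene, those called at 1.5-fold or more, the 3 largest called changes and the 2 most abundant genes are named. Members and lists were chosen with earlier results of these data known. Alternatives were a pseudocount of 0.1, other filters, median-of-ratios and quantile scaling, a replicate block and leaving out each library. Gene positions are from GENCODE v44, matched by Ensembl identifier.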

Additional observations from a re-analysis of the deposited data

How the results depend on the processing

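MMP1, MMP3, MMP14, PLAU, PLAUR and TIMP2 kept their direction and their call in all 12 alternatives, and TIMP1 kept its direction in all 12 and its call in 7. Besides the losses of TIMP1 given above, its call was lost with no expression filter (adjusted p = 0.0689 by limma). The 4736 genes called became 420, and the 7 members 2, when a fold of at least 1.5 was also required. With each library left out in turn, 3532 to 4649 genes and 6 to 7 members were called. In a fit with a replicate block, 3951 genes and the same 7 members were called. Libraries sharing a number showed no common deviation from their group means (correlations of -0.21, 0.012 and -0.079 over the genes tested), and the block removed the call of SERPINB6 and of no other named gene. All 4 ratios given above kept their direction with a pseudocount of 0.1 and with each library left out. For genes outside the member list the alternatives were added after the data were seen. ADAM9, not called, ranged from -0.093 to 0.0096 over the left-out libraries, changing sign without vehicle replicate 1 (0.0041) and without PDBAG1 replicate 1, and TIMP3, not called, ranged from -0.0020 to 0.13, changing sign without PDBAG1 replicate 3. SERPINB6 lost its call in 7 of the 12 alternatives, SERPINB2 in 6 and SPOCK2 in 3. BSG lost its call after median-of-ratios scaling, without vehicle replicate 3 and without PDBAG1 replicate 1, and ENO1 after median-of-ratios scaling (adjusted p = 0.0506 by limma). TPM without counts set no limit of detection, which bears most on MMP9 and MMP13.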

Other observations

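ADAMTS proteases, secreted enzymes that cleave proteoglycans and other matrix proteins, were mostly low: of 19 genes, 6 were tested, 2 rose and 0 fell in limma at an adjusted p of 0.05, a share near the 21.7% of all genes called higher. ADAMTS9 went from 1.56, 1.51 and 1.37 TPM with vehicle to 2.16, 2.70 and 2.56 TPM with PDBAG1 (log2 fold change 0.48, adjusted p = 0.00365 by limma). ADAMTS1 rose from 8.29 ± 0.405 to 10.6 ± 0.888 TPM (SD, n = 3 per group). ADAMTS16, the most abundant of them with PDBAG1, had overlapping groups, at 9.71 ± 0.318 and 10.8 ± 1.35 TPM (SD, n = 3 per group; adjusted p = 0.243 by limma).

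Of 10 listed activators and surface inducers of metalloproteinases, 9 were tested, 6 rose and 0 fell, where 21.7% of all genes were called higher; no test was made of the list. CD44, a hyaluronan receptor that can hold MMP9 and MMP14 at the cell surface, was at 331, 319 and 313 TPM with vehicle and at 463, 490 and 499 TPM with PDBAG1 (log2 fold change 0.59, adjusted p = 1.15e-07 by limma). FURIN, the proprotein convertase that removes the pro-domain of MMP14, rose from 16.2 ± 0.699 to 20.4 ± 1.52 TPM (SD, n = 3 per group; log2 fold change 0.32, adjusted p = 0.00339 by limma), a smaller change than that of MMP14. The lysosomal protease CTSD rose from 863 ± 14.5 to 1073 ± 36.6 TPM, and BSG, which induces MMPs in neighbouring cells, from 803 ± 8.18 to 868 ± 18.7 TPM (SD, n = 3 per group; log2 fold change 0.11).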
